A study of Mus musculus with 4 samples.

Results

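Collagens are the proteins of the body's fibres and sheet-like matrices, and their genes were followed here in mouse liver after delivery of Cre to a floxed Trib1 allele. The members are the array's non-control probes whose gene name has the form Col, a number, a and a number. They came to 67 probes of 43 genes, out of 39429 probes and 30139 genes on the array. Within them, 5 fibrillar genes (Col1a1, Col1a2, Col3a1, Col5a1 and Col5a2) were set beside the 38 other collagen genes. A further 2 probes carried the older array name Emid2 for what RefSeq calls Col26a1, and they fall outside the naming rule.

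In both groups the animals were females of the C57B/6 strain, 8 to 10 weeks old and homozygous for floxed Trib1. They were injected with an adeno-associated virus, either AAV_Cre or AAV_Null, and whole liver was taken 1 week later after 4 hours without food. Cre recombinase removes DNA between loxP sites, and the study was designed to ask about loss of Trib1, a pseudokinase that brings the transcription factor C/EBPα to a ubiquitin ligase. Each of 4 Agilent 2-colour arrays of 1 slide held 1 AAV_Cre and 1 AAV_Null RNA, and no RNA was hybridised more than once. The AAV_Cre RNA carried Cy5 on arrays 1 and 2 but Cy3 on arrays 3 and 4. The labels used here do not give the promoter that drives Cre, nor whether an RNA came from 1 animal or a pool. The p-values therefore measure a spread between RNA pairs. Because the fit holds a dye effect, it is the spread between pairs of the same dye orientation.

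Each collagen protein has stretches with glycine at regular steps along the chain, which lets 3 chains wind into a triple helix. Fibrillar collagens are secreted as procollagens, trimmed, assembled into banded fibrils and cross-linked, while type IV chains form the sheet-like network of basement membranes. In liver, stellate cells, portal fibroblasts and myofibroblasts are the usual makers of fibrillar collagen, endothelial cells and others contribute basement membrane chains, and hepatocytes are a known source of Col18a1.

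The repeat can be read in the array's own probes. Of the 67 collagen probes, 3 held at least 5 GGN codons, the codons of glycine, spaced 9 bases apart. Those of Col15a1 and Col16a1 are shown to make the repeat visible, 5′ to 3′, with the glycine codons in capitals.
Col15a1: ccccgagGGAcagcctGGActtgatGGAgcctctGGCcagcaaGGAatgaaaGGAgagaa
Col16a1: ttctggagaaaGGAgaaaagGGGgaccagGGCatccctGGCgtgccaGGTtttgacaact
The Col16a1 probe shown was well above background in 0 of 8 channels and the Col15a1 probe in 1 channel of each group, and the tested values of Col16a1 below come from other probes.

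Promoter sequences are given for the members at the top of the ranking that the RefSeq table (GRCm38.p6) holds, which are Col3a1, Col1a2 and Col5a3. It holds 35 of the 43 genes and 15 of the 18 tested ones, while Col1a1, Col12a1 and Col14a1 are named only. The 250 bases before each gene's start were searched on both strands for the CCAAT box, for the TATA box in the form TATAAA, and for TTNNGNAA, a loose form of the C/EBP site. No matches of different motifs overlapped in the collagen promoters, and capitals mark the matches, with positions counted back from the start.
Col3a1 (chr1:45311288-45311537, plus strand): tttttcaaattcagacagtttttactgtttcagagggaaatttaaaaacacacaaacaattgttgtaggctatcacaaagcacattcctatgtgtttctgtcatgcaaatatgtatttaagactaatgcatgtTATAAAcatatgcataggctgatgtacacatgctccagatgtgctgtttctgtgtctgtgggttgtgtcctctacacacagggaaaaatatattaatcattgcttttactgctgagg
Col1a2 (chr6:4505368-4505617, plus strand): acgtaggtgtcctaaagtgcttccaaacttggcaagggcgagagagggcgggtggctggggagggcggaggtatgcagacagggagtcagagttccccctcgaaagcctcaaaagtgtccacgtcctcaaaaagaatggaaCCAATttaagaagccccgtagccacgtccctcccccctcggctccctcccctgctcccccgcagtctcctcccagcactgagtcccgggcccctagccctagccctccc
Col5a3 (chr9:20815068-20815317, minus strand): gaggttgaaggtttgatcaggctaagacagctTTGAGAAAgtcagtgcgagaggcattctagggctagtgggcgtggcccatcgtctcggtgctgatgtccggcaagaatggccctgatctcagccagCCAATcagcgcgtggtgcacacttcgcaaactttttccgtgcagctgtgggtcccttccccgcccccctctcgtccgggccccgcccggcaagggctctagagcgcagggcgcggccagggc
Col3a1 held TATAAA at position -117, Col1a2 held CCAAT at -109, and Col5a3 held CCAAT at -122 and TTNNGNAA at -218. CCAAT was present in 8 of the 16 promoters listed for tested collagens, 1 gene having 2, and in 33.8% of all 32851 promoters. TTNNGNAA was present in 3 of the 16 and in 36.8% of all, and TATAAA in 1 of the 16 and in 12.4% of all. A match describes letters in this window and shows no binding.

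Of the 43 collagen genes, 18 were tested. A gene was tested where a probe was well above background in 3 or more of the 4 channels of either group and was measured on at least 3 arrays. A further 19 had no probe well above background in any of the 8 channels. The other 6 had some signal, and all are described below. By class, 4 of 5 fibrillar genes of the rule were tested, 1 of 6 other fibrillar genes, 5 of 9 fibril-associated genes, 3 of 8 beaded filament and anchoring genes, and 5 of 8 basement membrane genes. None of the 3 short chain genes (Col8a1, Col8a2 and Col10a1) and none of the 4 transmembrane and other genes (Col13a1, Col17a1, Col23a1 and Col25a1) passed.

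On each array, 43020 spots were not controls, 51.0% to 58.7% of them were well above background in either dye, and 0 were saturated. All 11 listed hepatocyte markers were tested. The Trib1 probe that stood for the targeted gene had log2 ratios of 0.64, 1.02, 1.09 and 1.01 on arrays 1 to 4, and its fit of 0.94 ± 0.078 (SE, n = 4 arrays) passed, with an adjusted p of 0.0226, so it was higher and not lower in RNA labelled AAV_Cre. Another probe of the same transcript had 0.97, 1.52, 1.48 and 1.18, and a probe of an Ensembl transcript of Trib1 had a fitted ratio of -0.05. The floxed part of Trib1 is not named in the labels, and a probe outside it checks nothing, so every ratio below sets the RNA labelled AAV_Cre over its AAV_Null partner. Across genes, which are not independent replicates, the ratios of arrays 1 and 2 had a correlation of 0.66, those of arrays 3 and 4 one of 0.49, and pairs of opposite orientation 0.07 to 0.19.

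Most of the measured collagens had a ratio above 0, and the fibrillar chains of types I, III and V (the Col5a3 chain) and the fibril-associated Col14a1 and Col12a1 had the highest. Only Col3a1 passed an adjusted p of 0.05 in limma. Of 18 tested collagens, 1 rose and 0 fell, where 2.80% of all 16081 genes passed in either direction, 1.80% upward and 1.01% downward. The count was sensitive to the processing, as was the count over all genes. Without background subtraction 8 passed (1296 of 16081 genes). With the authors' deposited log2 values 8 passed (1315 of 15967 genes), and in a separate-channel fit 8 (2597 of 15705). Median centring gave 6 (712 of 16081), and so did robust empirical Bayes (1295 of 16081). No collagen passed without a dye effect (248 of 16081 genes), without the filter (272 of 29983) or with 1 array left out. At an unadjusted p under 0.05, 9 collagens were higher, against 11.7% of all genes, and 1 was lower, against 11.2%. The ratio was above 0 in 16 of the 18, against 7923 of all 16081 genes. It was above 0 on all 4 arrays for 7, against 12.1% of all genes, and below 0 on all 4 for 1, against 11.5%. The median log2 ratio was 0.20 over the tested collagens and -0.0025 over all genes tested. Where the levels of the 4 AAV_Cre RNAs all lay above those of the 4 AAV_Null RNAs, as for 3.19% of all genes, the collagen was Col12a1 alone, and 0 collagens had all AAV_Cre levels below, as 2.66% of all genes did. Col12a1 was tested through the group in which it was higher, with 4 AAV_Cre channels and 1 AAV_Null channel well above background, so its place in these counts is a description only.

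**Figure D1:**
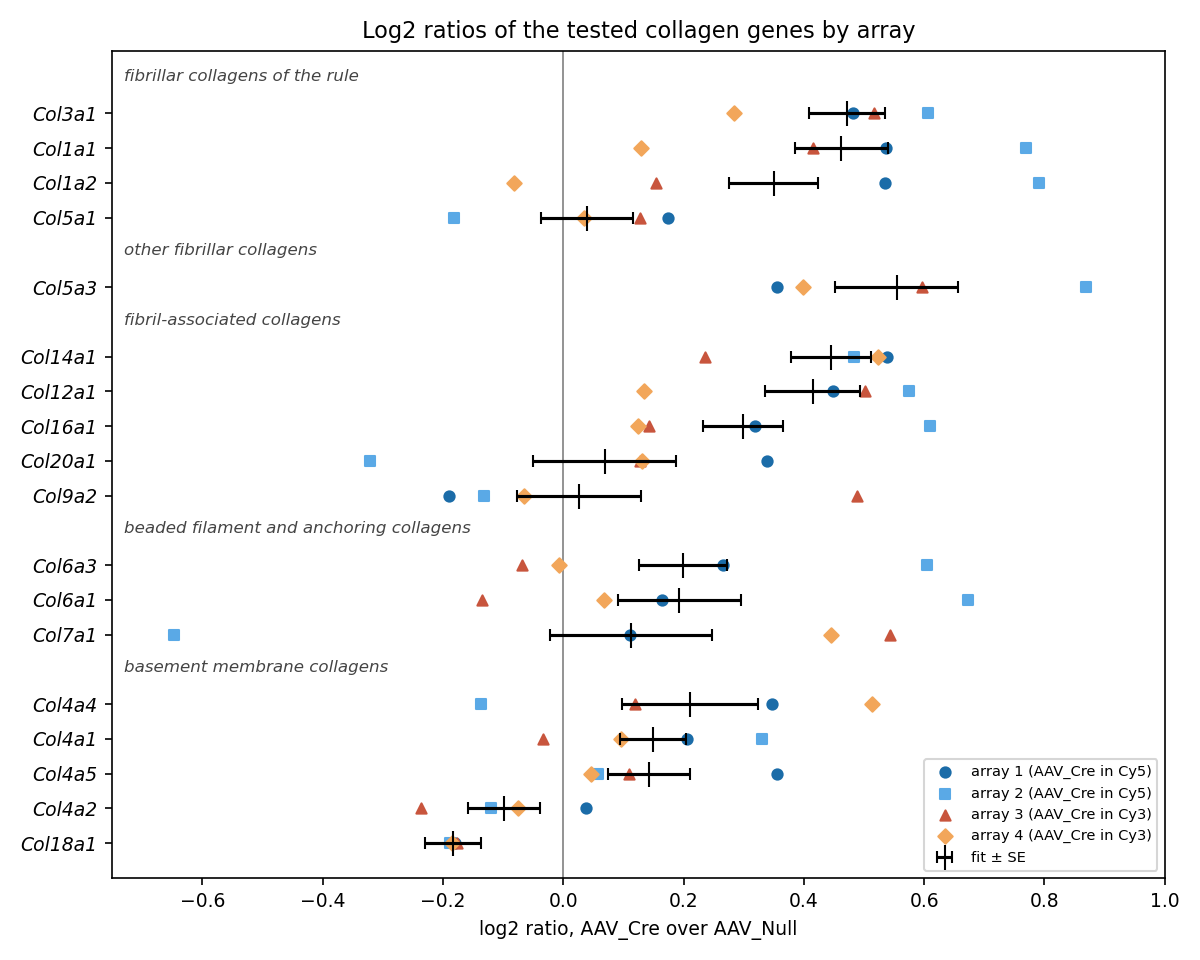
The log2 ratio of AAV_Cre over AAV_Null is plotted for each of the 18 tested collagen genes, grouped by class, with 1 coloured symbol per array and a black bar for the fitted value ± SE. Col3a1, Col1a1, Col5a3, Col14a1, Col12a1, Col16a1 and Col4a5 lie above 0 on all 4 arrays, and Col18a1 lies near -0.18 on all 4.

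Col3a1 encodes the single chain of type III collagen, which forms fine reticular fibrils together with type I. Its log2 normalised intensity in the AAV_Cre RNAs of arrays 1 to 4 was 11.33, 10.59, 11.25 and 10.50, and in the AAV_Null RNAs 10.84, 9.98, 10.73 and 10.22. Levels overlapped between the groups, since arrays 1 and 3 were high for both RNAs, but on each array the AAV_Cre RNA was the higher. The log2 ratios were 0.48, 0.61, 0.52 and 0.28. Col3a1 rose by 0.47 ± 0.064 (SE, n = 4 arrays), or 1.39-fold, with a 95% interval of 0.30 to 0.64 and an adjusted p of 0.0442 in limma. The call did not hold in a fit of 3 arrays, whichever of the 4 was left out, where the ratio was 0.41 to 0.53 and the adjusted p 0.0855 to 0.259. It was also lost without a dye effect or without the filter, where the highest adjusted p was 0.0627.

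Col1a1 and Col1a2 encode the 2 kinds of chain of type I collagen, the main protein of fibrous tissue. Col1a1 had levels of 10.40, 10.03, 10.44 and 9.89 in the AAV_Cre RNAs and 9.87, 9.26, 10.03 and 9.76 in the AAV_Null RNAs. Each AAV_Cre RNA exceeded its partner, by little on array 4, and the groups overlapped. The ratios were 0.54, 0.77, 0.41 and 0.13, and the fit gave 0.46 ± 0.077 (SE, n = 4) at an adjusted p of 0.0626.

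Col1a2 had levels of 11.28, 11.11, 11.17 and 10.56 in the AAV_Cre RNAs and 10.74, 10.32, 11.02 and 10.64 in the AAV_Null RNAs. On array 4 the order was turned. The ratios were 0.54, 0.79, 0.15 and -0.08, and the fit gave 0.35 ± 0.074 (SE, n = 4), with an adjusted p of 0.0906. The difference lay on the arrays with AAV_Cre in Cy5, where the mean ratio was 0.66, against 0.04 on those with AAV_Cre in Cy3. For Col1a1 these means were 0.65 and 0.27, and for Col3a1 0.54 and 0.40. The smallest adjusted p of a dye effect among the tested collagens was 0.0972, for Col1a2. Dye orientation and the RNA pairs hybridised in it cannot be told apart.

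**Figure D2:**
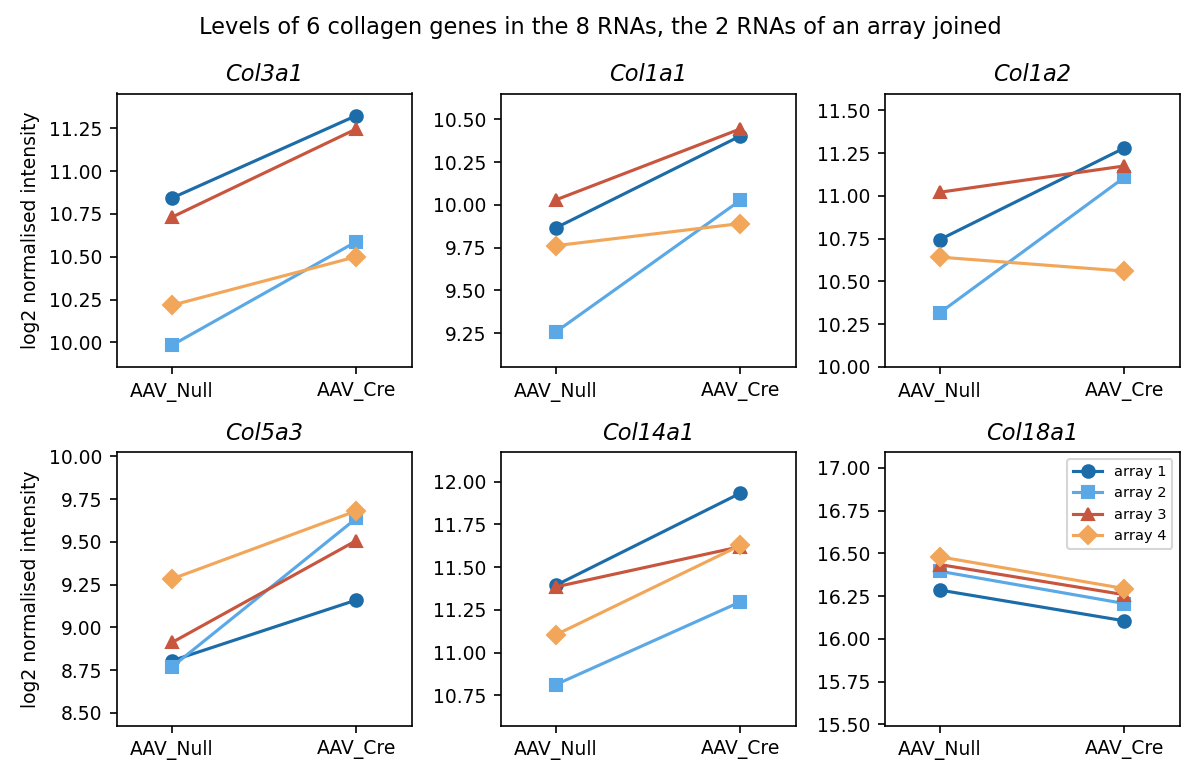
Log2 normalised intensity is plotted for 6 collagen genes in the AAV_Null and AAV_Cre RNAs, with the pair of RNAs on an array joined by a line and every panel covering the same span. Lines run upward for Col3a1, Col1a1, Col5a3 and Col14a1, the array 4 line of Col1a2 runs slightly downward from 10.64 to 10.56, and the lines of Col18a1 fall in parallel.

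Type V collagen sits in the core of type I fibrils and limits their width, and its chains did not have like ratios. Col5a3, which the rule leaves outside its fibrillar group though it is a fibrillar chain, had levels of 9.16, 9.64, 9.51 and 9.68 in the AAV_Cre RNAs and 8.80, 8.77, 8.91 and 9.28 in the AAV_Null RNAs. The groups overlapped only through array 1's AAV_Cre RNA and array 4's AAV_Null RNA. Its ratios were 0.35, 0.87, 0.60 and 0.40, and its fitted ratio of 0.55 ± 0.10 (SE, n = 4) was the highest of the tested collagens in this fit, with an adjusted p of 0.0749. Col12a1 exceeded it without background subtraction (0.63 against 0.62), with the scanner software's ratio (1.71 against 0.69) and with the authors' deposited log2 values (0.67 against 0.63).

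Col5a1, the chain common to most type V molecules, had ratios of 0.17, -0.18, 0.13 and 0.04. They lay on both sides of 0, and the fit gave 0.04 ± 0.077 at an adjusted p of 0.793, with a 95% interval of -0.16 to 0.24. Its ratio was 0.19 without background subtraction, 0.34 with the scanner software's ratio and 0.20 with the authors' deposited log2 values, none past the threshold, and it ran from -0.05 without array 1 to 0.13 without array 2. Col5a2 was not well above background in any channel, and its ratios of -0.28, -0.43, -0.19 and -0.24 are those of signals at background. The difference between Col5a3 and Col5a1 was not tested.

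Among the fibril-associated collagens, which coat fibrils and link them to their surroundings, Col14a1 had levels of 11.93, 11.30, 11.62 and 11.63 in the AAV_Cre RNAs and 11.39, 10.81, 11.38 and 11.10 in the AAV_Null RNAs. Array 2 was low for both RNAs, and it alone made the groups overlap. The ratios were 0.54, 0.48, 0.24 and 0.52, and the fit gave 0.45 ± 0.067 (SE, n = 4) at an adjusted p of 0.0530. Another Col14a1 probe, well above background in 2 channels of each group, was not tested. Its ratios were -0.09, -0.48, 0.02 and -0.40, so the 2 probes disagreed. The untested probe was much the dimmer, with a mean log2 intensity of 7.12 against 11.40.

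Col12a1, related to Col14a1 in its domains, had levels of 7.11 to 7.56 in the AAV_Cre RNAs and 6.83 to 7.05 in the AAV_Null RNAs. These did not overlap, but the probe was well above background in 4 AAV_Cre channels and in 1 AAV_Null channel, so it passed the filter through the group in which it was higher. The ratios were 0.45, 0.57, 0.50 and 0.13, and the fit gave 0.41 ± 0.079 at an adjusted p of 0.0786. It was 0.63 without background subtraction, 0.67 with the authors' deposited log2 values and 1.71 with the scanner software's ratio. It passed in these 3 settings at adjusted p of 0.0247 to 0.0328. At 0.41 it also passed with median centring (adjusted p 0.0492) and in the separate-channel fit (adjusted p 0.00479). Another Col12a1 probe, well above background in 1 channel of each group, was not tested, and its ratios were -0.25, 0.15, -0.27 and 0.06.

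Col16a1 was measured by 2 tested probes with fitted ratios of 0.30 and 0.26. The probe that stood for the gene had ratios of 0.32, 0.61, 0.14 and 0.12, all above 0, and an adjusted p of 0.0994. Col20a1 had ratios of 0.34, -0.32, 0.13 and 0.13 around a fit of 0.07 ± 0.12. It passed as higher without background subtraction (0.24), with the scanner software's ratio (0.48) and with the authors' deposited log2 values (0.26), at adjusted p of 0.0385 to 0.0416. Col9a2, a chain of type IX collagen known mainly from cartilage, had -0.19, -0.13, 0.49 and -0.06 around 0.03 ± 0.10. For Col20a1 and Col9a2 the arrays did not share a direction.

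Type VI collagen forms beaded filaments near cell surfaces. Its tested chains had higher mean ratios with AAV_Cre in Cy5 than with AAV_Cre in Cy3. These were 0.44 against -0.04 for Col6a3 and 0.42 against -0.03 for Col6a1. The dye effects did not pass, at adjusted p of 0.143 and 0.245 in the same fit. Col6a3 had ratios of 0.27, 0.60, -0.07 and -0.01, with a fit of 0.20 ± 0.074 at an adjusted p of 0.211. Col6a1 had 0.16, 0.67, -0.13 and 0.07, with a fit of 0.19 ± 0.10 at an adjusted p of 0.336, which ran from 0.07 without array 2 to 0.32 without array 1. Both were highest on array 2 and lowest on array 3. Col7a1, the anchoring fibril collagen best known from skin, had 0.11, -0.65, 0.54 and 0.44, and its fit of 0.11 ± 0.13 was smaller than the spread of its arrays.

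**Figure D3:**
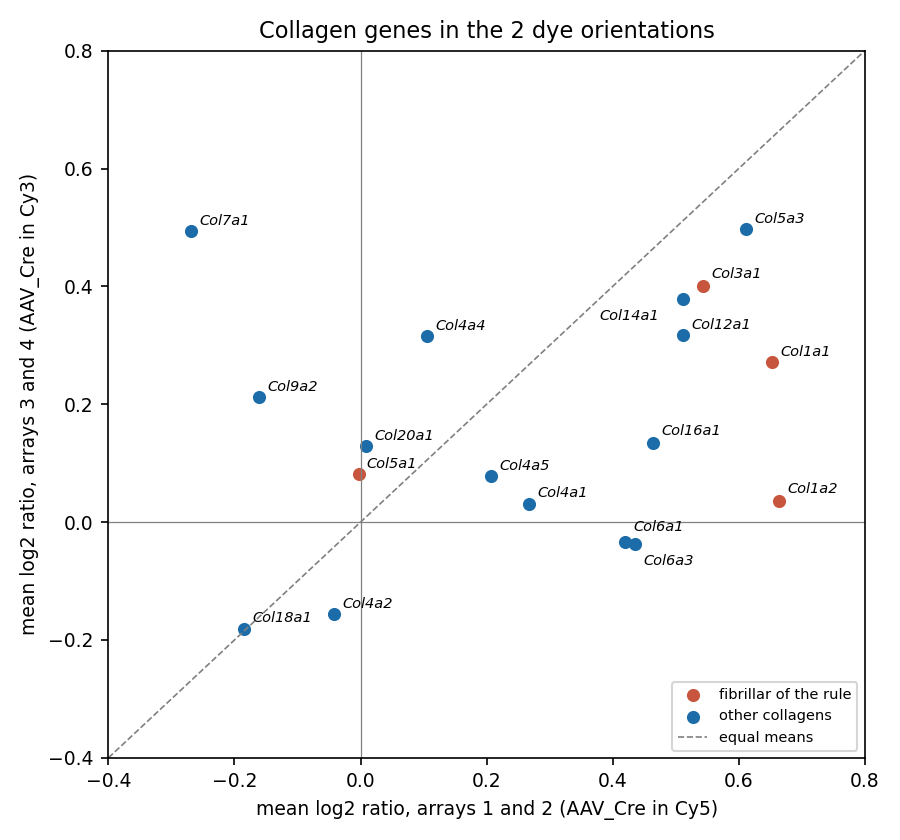
The mean log2 ratio of each tested collagen on arrays 1 and 2, with AAV_Cre in Cy5, is plotted against its mean on arrays 3 and 4, with AAV_Cre in Cy3. Col18a1 lies on the line of equal means at -0.18, Col5a3 (0.61 and 0.50) and Col3a1 (0.54 and 0.40) lie near it, and Col1a2 (0.66 and 0.04) lies far below it.

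The basement membrane collagens were lower in the ranking than the type I and III chains, but Col4a4, Col4a1 and Col4a5 ranked above the fibrillar Col5a1. None of the 5 tested basement membrane genes passed in limma, with 1 higher and 1 lower at an unadjusted p under 0.05 (11.7% and 11.2% of all genes). Col4a1 and Col4a2 encode the chains that build the common type IV network, and they lie head to head on chromosome 8. Their annotated starts in the RefSeq table are 21 bases apart, and each gene is transcribed across the other's start. So the bases from one start to the other are annotated as transcribed in both genes. They are shown on the plus strand, with no capitals because none of the 3 motifs matched in them.
Col4a1 to Col4a2 (chr8:11312805-11312826): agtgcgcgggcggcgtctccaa
Of 8 pairs of collagen genes that neighbour each other, this was the only one with both genes tested. Col4a1 had levels of 8.48, 8.53, 8.86 and 8.65 in the AAV_Cre RNAs and 8.27, 8.20, 8.89 and 8.55 in the AAV_Null RNAs, and only on array 3 was the AAV_Cre RNA the lower. Its fitted ratio was 0.15 ± 0.055 (SE, n = 4) at an adjusted p of 0.209. Its probe is printed in 10 spots on each array, and their log2 ratios had an SD of 0.080 to 0.13 within an array, around array means of 0.21, 0.33, -0.03 and 0.10.

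Col4a2 had levels of 8.13, 8.02, 8.22 and 8.52 in the AAV_Cre RNAs and 8.09, 8.14, 8.46 and 8.60 in the AAV_Null RNAs. Its ratios were 0.04, -0.12, -0.24 and -0.07, with a fit of -0.10 ± 0.060 at an adjusted p of 0.389. The fitted value turned to between 0.05 and 0.06 without background subtraction, with the scanner software's ratio and with the authors' deposited log2 values. So the 2 neighbours had fits of opposite sign, neither past the threshold, and the difference between them was not tested.

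Col4a4 and Col4a5, chains of specialised basement membranes such as that of the kidney glomerulus, had fits of 0.21 ± 0.11 and 0.14 ± 0.068, at adjusted p of 0.343 and 0.301. Col4a5 was above 0 on all 4 arrays, at 0.36, 0.06, 0.11 and 0.05, while Col4a4 was below 0 on array 2. With 1 array left out, Col4a4 ran from 0.09 without array 1 to 0.33 without array 2, and Col4a5 from 0.07 to 0.22 without the same arrays.

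Col18a1, whose cleaved end is endostatin, was the lowest of the tested collagens and had the most even ratios. Its levels were 16.11, 16.21, 16.26 and 16.29 in the AAV_Cre RNAs and 16.29, 16.40, 16.43 and 16.48 in the AAV_Null RNAs. The ratios were -0.18, -0.19, -0.18 and -0.19, and the fit gave -0.18 ± 0.046 (SE, n = 4) at an adjusted p of 0.121. A second probe had the same fitted ratio, -0.18, but with array values of -0.30, -0.25, -0.09 and -0.10. With median centring in place of loess the gene's ratio was -0.06. It passed as lower with robust empirical Bayes and in the separate-channel fit, at adjusted p of 0.0458 and 0.0203.

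Fibrillar and other collagens were then set side by side by their medians. The 4 tested fibrillar genes of the rule had a median log2 ratio of 0.41, and the 14 other tested collagens 0.17. On arrays 1 to 4 the fibrillar medians were 0.51, 0.69, 0.28 and 0.08, and those of the others 0.29, 0.19, 0.12 and 0.11. The fibrillar median was the higher on arrays 1, 2 and 3 and the lower on array 4. By class, the 5 fibril-associated genes had a median of 0.30, the 3 beaded filament and anchoring genes 0.19 and the 5 basement membrane genes 0.14. The classes hold few genes and the difference between them was not tested.

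The collagens left untested included 6 with some signal. Col4a6 had 1 bright probe, with processed intensities of 10414 to 28155, and 1 probe at 3.36 to 14.4 that was not well above background in any channel. The scanner software marked the bright probe's spot as an outlier on arrays 1 and 2, so it was not tested. With those spots kept, its ratios were 0.33, 0.63, -0.45 and -0.49, above 0 in one dye orientation and below 0 in the other.

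Of the remaining 5, Col27a1, a fibrillar chain of cartilage, was well above background in 2 of 4 AAV_Null channels and in 0 AAV_Cre channels, with array ratios of -0.48, -0.59, -0.26 and 0.05. Col22a1 was well above background in 2 AAV_Cre channels and 0 AAV_Null channels, with array ratios of 0.10, 0.11, 0.06 and 0.57. The other channels of both probes were not well above background, so these ratios set no bound on a fold, and they carry no test. Col11a2, with 0 AAV_Cre and 2 AAV_Null channels well above background, had array ratios of -0.63, 0.10, 0.56 and -0.09, on both sides of 0. Col15a1 and Col6a4 had 1 channel of each group well above background.

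Counts in the lists below stand beside shares over all genes of 11.7% higher and 11.2% lower at an unadjusted p under 0.05. At the adjusted threshold these shares were 1.80% and 1.01%. The enzymes that modify and fold procollagen had 17 of 20 genes tested, and none passed in limma, with 1 higher and 5 lower at an unadjusted p under 0.05 and a median of 0.02. Its smallest p belonged to Mia3, which loads procollagen into transport carriers, at -0.32 ± 0.050 and an adjusted p of 0.0564. Serpinh1, the collagen chaperone, had 0.03 ± 0.090. Of 13 genes for procollagen processing and cross-linking, 8 were tested and none passed, with a median of 0.19. At an unadjusted p under 0.05, 4 were higher and 1 lower. Loxl1 had 3 AAV_Cre and 2 AAV_Null channels well above background, so it was tested through the group in which it was higher. Bmp1, which trims the end of procollagen, had -0.44 ± 0.092 at an adjusted p of 0.0885, and Lox, a cross-linking enzyme, was not well above background in any channel.

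Of 19 proteins that bind or organise fibrils, 15 were tested and 1 rose, with 7 higher and 0 lower at an unadjusted p under 0.05 (11.7% and 11.2% of all genes) and a median of 0.24. Of these 7, Thbs1 had 4 AAV_Cre channels and 1 AAV_Null channel well above background. It was tested through the group in which it was higher, so its place in the count is a description only. Postn, a matrix protein that binds collagen, had ratios of 0.81, 0.65, 0.24 and 0.56. It rose by 0.56 ± 0.075 (SE, n = 4), with an adjusted p of 0.0438, which was 0.0558 to 0.0698 without the filter, with the scanner software's ratio or without a dye effect, and 0.0698 to 0.226 with an array left out. Of 15 basement membrane partners, 14 were tested and 1 rose, with 4 higher and 0 lower at an unadjusted p under 0.05 and a median of 0.09. Nid1, which links laminin to the type IV collagen network, had ratios of 1.09, 1.38, 0.80 and 0.69 and rose by 0.99 ± 0.069 (SE, n = 4), with an adjusted p of 0.0175. Its call held under all 11 alternative settings, at an adjusted p of at most 0.0222, but not with any 1 array left out, at 0.0671 to 0.138. A pair of further Nid1 probes was not tested because they were too dim.

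Breakdown was represented by 8 tested genes of 15, of which none passed, with 1 higher and 1 lower at an unadjusted p under 0.05 and a median of 0.07. Timp2, an inhibitor of matrix metalloproteinases, had the smallest p, at 0.32 ± 0.082 and an adjusted p of 0.122. Timp1, with 3 AAV_Cre channels and 1 AAV_Null channel well above background, was tested through the group in which it was higher. Mmp2, Mmp8, Mmp9 and Mmp13, which digest collagen or its fragments, were not well above background in any channel. Of 9 collagen receptor genes, 6 were tested and none passed, with 1 higher at an unadjusted p under 0.05 and a median of 0.08. That gene was Itgb1, the β1 integrin chain, at 0.25 ± 0.049 and an adjusted p of 0.0807. Itga11, with 4 AAV_Cre channels and 1 AAV_Null channel well above background, was tested through the group in which it was higher.

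**Figure D4:**
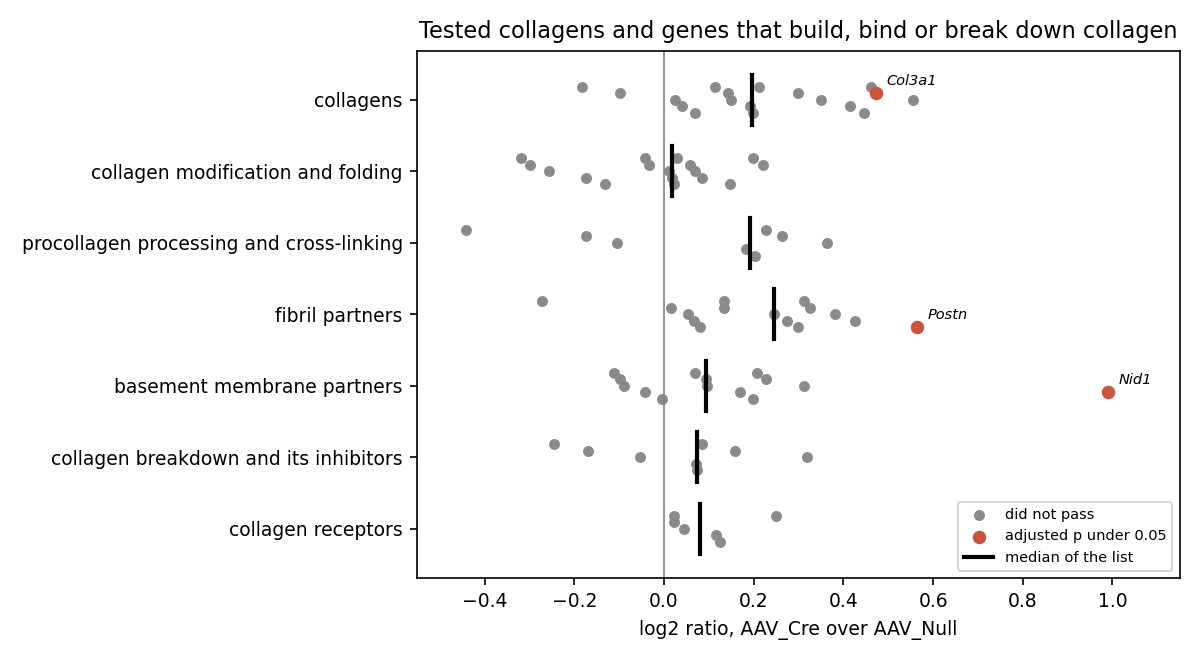
Each point is the fitted log2 ratio of 1 tested gene, for the collagens and for 6 lists of genes that build, bind or break down collagen, with red for an adjusted p under 0.05 and a black bar at each list's median. Col3a1, Postn and Nid1 are the only red points, and the medians run from 0.02 for modification and folding to 0.24 for fibril partners.

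Markers of the cells that could carry these transcripts were read in the same fit. Their counts too stand beside 11.7% of all genes higher and 11.2% lower at an unadjusted p under 0.05. In whole liver, fewer cells of a type and less RNA per cell cannot be told apart. Of 13 stellate cell markers, 10 were tested and 1 rose, with 2 higher and 0 lower at an unadjusted p under 0.05 and a median of 0.13, with array medians of 0.19, 0.20, -0.19 and 0.34. The marker that rose was Colec10, a collectin, by 0.44 ± 0.057 (SE, n = 4), with an adjusted p of 0.0406. Its ratios on arrays 1 to 4 were 0.70, 0.76, 0.06 and 0.25. The adjusted p was 0.223 without a dye effect, 0.0609 without the filter and 0.0788 to 0.250 with an array left out. The summed normalised intensity of the tested stellate markers was 21299 to 24698 in the AAV_Cre RNAs and 16390 to 23478 in the AAV_Null RNAs, with Des and Gfap not well above background in any channel.

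Of 7 portal fibroblast markers, 5 were tested and none passed, with 2 higher and 0 lower at an unadjusted p under 0.05 and a median of 0.17. Mfap4 had the smallest p of these, at 0.21 ± 0.047 and an adjusted p of 0.0970. The list's summed intensity was 1737 to 2182 against 1669 to 1899. Pi16 had 2 AAV_Cre and 4 AAV_Null channels well above background, so it was tested through the group in which it was higher. Of 7 myofibroblast and smooth muscle markers, 4 were tested and none passed, with 1 higher at an unadjusted p under 0.05 and a median of 0.05. Their sum was 11087 to 15116 against 9512 to 19130, Myl9 had 0.23 ± 0.078 at an adjusted p of 0.184, and Myh11 was not well above background in any channel. Of 6 mesothelial markers, 3 were tested and 1 rose, with 2 higher and 0 lower at an unadjusted p under 0.05 and a median of 0.28. That was Msln, mesothelin, by 0.47 ± 0.066 (SE, n = 4), with an adjusted p of 0.0477, with ratios of 0.02, 0.30, 0.76 and 0.78. Its adjusted p was 0.223 without a dye effect, 0.0636 to 0.0688 with the scanner software's ratio or without the filter, and 0.110 to 0.235 with an array left out. The mesothelial sum was 621 to 798 in the AAV_Cre RNAs and 538 to 595 in the AAV_Null RNAs. It holds Gpm6a, with 3 AAV_Cre channels and 1 AAV_Null channel well above background. That gene was tested through the group in which it was higher, so the sum is a description only. Upk3b, Upk1b and Lrrn4 were not well above background in any channel. The part of these cells in the collagen ratios was not tested.

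Markers of the remaining liver cells included no gene that passed. All 12 endothelial markers were tested, with a median of -0.14 and array medians of -0.005, -0.013, -0.25 and -0.28. At an unadjusted p under 0.05, 1 was higher and 6 lower, with the smallest p for Clec4g at -0.35 ± 0.058 (adjusted p 0.0623). Of the 6 lower, Tek had 2 AAV_Cre and 3 AAV_Null channels well above background, so it was tested through the group in which it was higher. All 10 Kupffer cell markers were tested, with a median of -0.21, 0 higher and 1 lower at an unadjusted p under 0.05, which was Marco at -0.59 ± 0.13 (adjusted p 0.0936). The Kupffer median was 0.34 on array 3 and -0.65 to -0.29 on the other arrays. The 11 hepatocyte markers had a median of -0.10, with array medians of 0.20, 0.07, -0.06 and -0.48. At an unadjusted p under 0.05, 1 was higher and 3 lower, and Alb had -0.39 ± 0.072 (adjusted p 0.0749). The ratios of Alb were 0.39, 0.27, -0.95 and -1.27, above 0 with AAV_Cre in Cy5 and below 0 with AAV_Cre in Cy3. Of 7 cholangiocyte markers, 4 were tested with a median of 0.15, 1 higher at an unadjusted p under 0.05, and Sox9 at 0.22 ± 0.053 (adjusted p 0.113). Their summed intensities were 21629 to 24421 against 22331 to 32695 for endothelial, 28048 to 55990 against 40277 to 63680 for Kupffer (9 of the 10 markers), 1095110 to 1888810 against 1451450 to 1905030 for hepatocyte and 720.5 to 957 against 718 to 849 for cholangiocyte markers, in AAV_Cre against AAV_Null RNAs.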

How the data were processed

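RNA was measured on 4 Agilent 2-colour arrays. Per the file headers, Agilent Feature Extraction (11.5.1.1) read each spot's intensity and local background and derived a log10 ratio of processed intensities. The authors deposited a table of log2 values, and the submitters' processing notes name limma. Its slope against the scanner log10 ratio (3.34, 3.33, -3.29 and -3.39 on arrays 1 to 4) gives its base and its direction, AAV_Cre over AAV_Null, and its medians were -0.022, -0.038, 0.035 and 0.041. Its normalisation is unknown. The labels give 2 labelling procedures, one of them with 200 ng, without saying which applied.

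Here mean intensities were corrected by normexp (offset 50) and loess in limma 3.58.1 under R 4.3.3, and the log2 ratio was fitted with a treatment and a dye effect (lmFit, eBayes). The dye effect takes up differences between the RNA pairs of the orientations, and the SE do not hold them. Spots marked as outliers were dropped, except for probes so marked on all 4 arrays. A gene is represented by its brightest tested probe, which also had to be measured on at least 3 arrays, with Benjamini-Hochberg adjustment over 16081 genes. Levels come from the same ratios and from average intensities made equal in distribution between arrays (Aquantile). Array number limits the precision, and the median SE was 0.062. Symbols came from a RefSeq table (GRCm38.p6): 27502 probes by accession, 3549 current, 404 by synonym, and 7974 kept the array's name. The fit was tested on simulated data.

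Members, lists and the naming rule were chosen with earlier results of these data known. Named genes were every collagen with signal and, per list, the called members or that of smallest p. Others were chosen after their values were seen (Serpinh1, Lox, metalloproteinases, undetected markers, list members flagged for their channel counts). The alternatives tried were a fit lacking the dye effect, separate channels (statmod 1.5.0), other background, normalisation, filter, outlier, probe and empirical Bayes settings, the authors' values and each array left out. Figures used matplotlib 3.10.9.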

Additional observations from a re-analysis of the deposited data

Results flagged for a closer look

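For 38 values, the 18 collagen ratios and the medians of the lists and classes, 1 array was compared with the other 3, and 2 of the 38 stood apart, where chance gives about 1.9. The median log2 ratio of the fibril partners on array 2 was 0.31, against 0.15 to 0.16 on the other arrays. The median of the basement membrane partners on array 3 was -0.062, against 0.13 to 0.15 on the other arrays. No single collagen gene had an array that stood apart in this way.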

How the results depend on the processing

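The ratio within an array already pairs 1 RNA of each treatment, and the groups share no other replicate number that could serve as a block. The collagens that passed changed with the setting. The fit without a dye effect gave 0 (248 genes in all), no background subtraction 8 (1296), the scanner software's ratio 3 (748) and median centring 6 (712). No filter gave 0 (272), and a filter on all 8 channels gave 2 of 16 tested collagens (583 of 14803 genes). Robust empirical Bayes with an intensity trend gave 6 (1295), the authors' deposited log2 values 8 (1315) and the separate-channel fit 8 (2597). With 1 array left out, 0 collagens and 0 to 38 genes passed. The median of the other collagens fell to 0.040 without the filter. It was 0.14 to 0.22 with 1 array left out, and the fibrillar median 0.34 to 0.47. Col4a2 turned to 0.047, 0.064 and 0.049 without background subtraction, with the scanner software's ratio and with the authors' values. With 1 array left out, Col20a1 ran from -0.096 to 0.23, Col5a1 from -0.050 to 0.13 and Col7a1 from -0.077 to 0.30, each lowest without array 1, and Col9a2 from -0.11 without array 3 to 0.16. The causes were not tested. In fits of 3 arrays, one dye orientation had a single array, assumed to vary like the others. Alternatives for Colec10, Msln, Nid1 and Postn were added after seeing the data.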
